A study of Mus musculus with 24 samples.

Results

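The 10 genes described here code for cytokines that antigen-presenting cells release, other than the IL-1 family: Tnf, Il6, Il10, Il12a, Il12b, Il23a, Il27, Ebi3, Il15 and Tgfb1. They were chosen by symbol, each matched to 1 Ensembl row, and make up 10 of the 45792 genes in the deposited values. RNA was sequenced from liver cells of C57BL/6 females kept for 2 weeks on food lacking methionine and choline, which produces fatty, inflamed livers. All mice also received an intravenous dose of liposomes carrying the membrane dye DiI, and the livers were taken 24 hours later. The liposomes were empty or held curcumin, a plant polyphenol. Cells bearing CD11c and MHC class II were sorted into DiI-positive cells, which had taken up dye, and DiI-negative cells. The 4 groups of 3 libraries were therefore empty-liposome DiI-positive, empty-liposome DiI-negative, curcumin-liposome DiI-positive and curcumin-liposome DiI-negative. Every group shares the diet, the strain, the sex and a liposome injection, so no group shows these cells without diet or liposome. There are 24 sample records, 2 to each of 12 library codes, and a code was counted as 1 library. Whether a library is 1 mouse or a pool is not stated, so p-values measure only how these libraries vary, which may be technical.

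Several of these cytokines are built from shared subunits. The Il12a product pairs with the Il12b product to form interleukin 12, the Il12b product with the Il23a product to form interleukin 23, and the Il27 product with the Ebi3 product to form interleukin 27. Tnf and Il6 are early inflammatory cytokines that macrophages and dendritic cells make on sensing microbes or injury. Il10 and Tgfb1 are known mainly for restraining inflammation, Tgfb1 also for driving fibrosis in the liver, and Il15 for sustaining NK cells and memory CD8 T cells. In the promoters of many of these genes, NF-kappaB binds a short G-rich and C-rich element.

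The stretches before the start sites of Il6 and Il12a are shown because these are the members that passed the test between the gates. Each is the 250 bases that precede a start site in RefSeq on GRCm38.p6, on the plus strand, with kappaB matches in capitals. The kappaB motif searched was 3 G, then 5 of any base, then 2 C, on both strands, and overlapping matches were kept. Il12a has 2 start sites in the table.
Il6, chr5:30012864-30013113: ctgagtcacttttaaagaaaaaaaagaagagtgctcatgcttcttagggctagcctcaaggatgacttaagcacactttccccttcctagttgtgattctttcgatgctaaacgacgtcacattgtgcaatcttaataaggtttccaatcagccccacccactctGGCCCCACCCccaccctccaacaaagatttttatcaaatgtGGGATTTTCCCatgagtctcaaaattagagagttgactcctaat
Il12a, first start, chr3:68690394-68690643: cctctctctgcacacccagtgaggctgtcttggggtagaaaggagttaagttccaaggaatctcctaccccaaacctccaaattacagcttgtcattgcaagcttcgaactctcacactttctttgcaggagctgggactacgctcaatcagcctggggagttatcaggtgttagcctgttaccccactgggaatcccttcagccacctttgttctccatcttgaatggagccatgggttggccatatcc
Il12a, later start, chr3:68691174-68691423: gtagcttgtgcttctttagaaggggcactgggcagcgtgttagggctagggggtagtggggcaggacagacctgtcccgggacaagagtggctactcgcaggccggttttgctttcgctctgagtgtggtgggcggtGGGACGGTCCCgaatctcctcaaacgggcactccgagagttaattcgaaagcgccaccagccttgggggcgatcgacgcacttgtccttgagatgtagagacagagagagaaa

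Motifs were counted over the full window of 300 bases, which adds the first 50 transcribed bases. Il6 held 3 kappaB matches, of which the last 2 overlap in GGGATTTTCCC, and 1 AP-1 match (TGANTCA) at the far end of the window. The later Il12a start held 3 kappaB matches, 1 of them after the start, and the first Il12a start held none. Tnf, Ebi3 and Tgfb1 also held kappaB matches and Il12b none, so 5 of the 6 members in the table had one. A kappaB match this loose was present in 50.8% of the 32851 promoters in the table, and AP-1 in 7.8%. Ets/PU.1 (GAGGAA) was found in Tnf, Il12b and Ebi3 and in 28.3% of all promoters. The TATA box (TATAAA) was found in Tnf and in 13.6% of all promoters. The interferon response motif was found in none of the 7 windows and in 3.4% of all promoters. Il10, Il23a, Il27 and Il15 were not in the table.

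The deposited values are on a log2 scale of the regularized-log kind, which pulls genes with few reads towards their own mean. For such genes the scale has a floor that differs from gene to gene: a library with 0 reads of Il6 is listed at 4.62, and one with 0 reads of Il23a at 2.24. Read numbers were therefore also worked back from the values, as an inference from the files. They are given beside the log2 values, and per size factor where libraries are compared. The libraries held 16867915 to 27486831 reads in genes, with size factors from 0.808 to 1.139 in the DiI-positive groups, and from 1.019 to 1.321 in the DiI-negative groups. In bulk samples such as these, fewer cells of a type and less RNA per cell cannot be told apart.

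**Figure D1:**
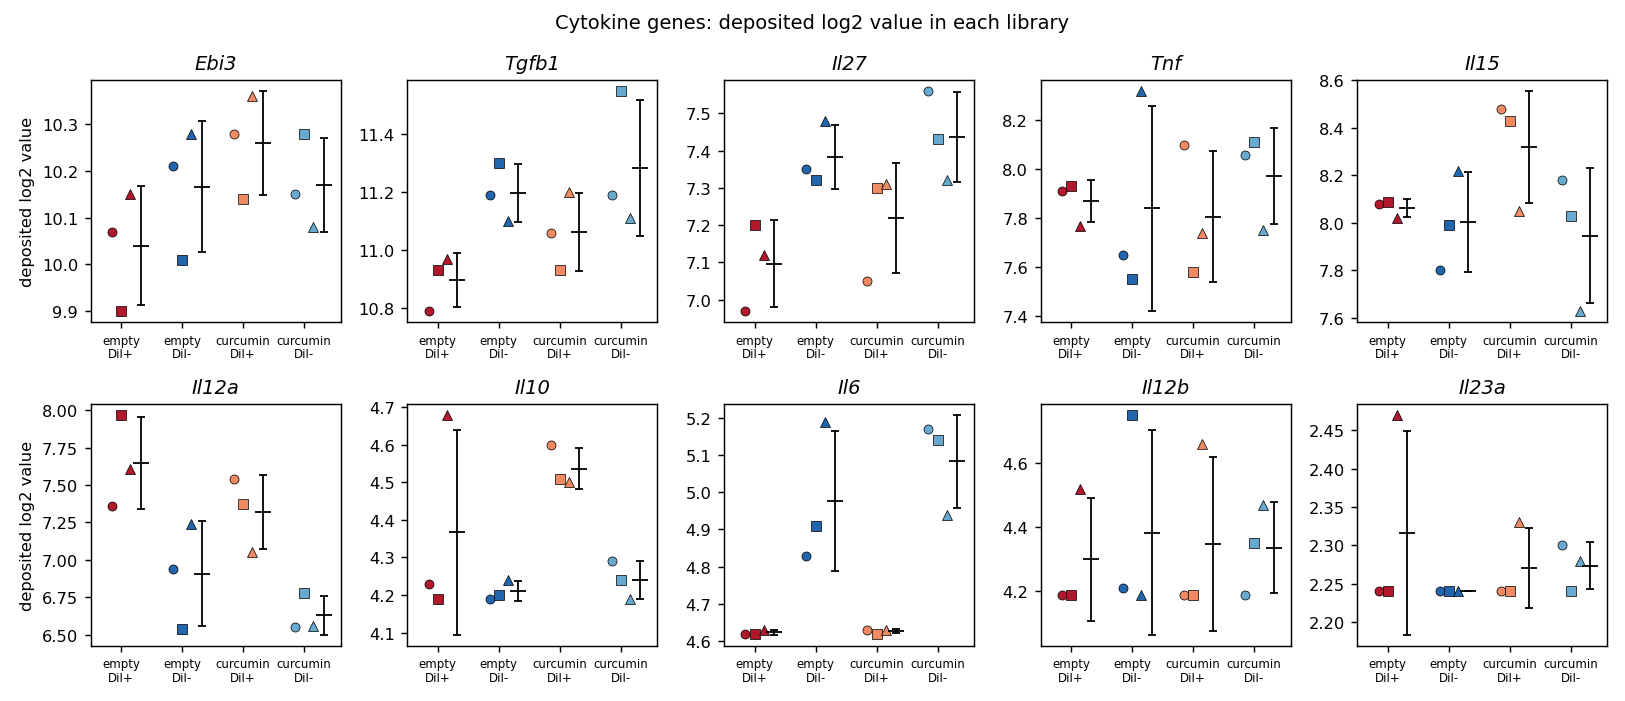
Deposited log2 value (y axis, its range set for each gene) of the 10 cytokine genes in each of the 12 libraries, by group on the x axis. Circles, squares and triangles are replicates 1, 2 and 3, and the bar is the mean ± SD of 3 libraries. Il6 lies at 4.62 or 4.63, with 0 or 1 reads, in all 6 DiI-positive libraries, while Tnf, Ebi3 and Il15 overlap between the gates.

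The sorted populations were not of 1 cell type by their markers. Dendritic cell markers were present in every group, and so were B cell markers, whose summed level was 40798 to 130008 reads per size factor in the DiI-positive libraries and 16838 to 38614 in the DiI-negative ones. All 6 B cell markers and 7 of 8 Kupffer cell markers were higher in DiI-positive cells, averaged over both liposomes (limma, adjusted p under 0.05). All 6 NK cell markers, all 5 monocyte markers and 4 of 6 cDC2 markers were lower. Of all genes tested, 5.54% were higher and 6.56% lower in this comparison. Of 6 cDC1 markers 1 was lower (Batf3), and of 5 mature dendritic cell markers 1 was higher (Ccr7) and 1 lower (Ccl22). Of 4 sinusoidal endothelial markers 1 was higher (Stab2). No T cell, plasmacytoid dendritic cell, neutrophil or hepatocyte marker passed. Both curcumin libraries numbered 3 stood apart: their plasmacytoid dendritic cell markers summed to 13528 and 15630 reads per size factor against 2971 to 4925 in the other 10, and their cDC1 markers to 37955 and 64384 against 15276 to 27945. In the DiI-positive one of the pair, sinusoidal endothelial markers reached 23897, against 140 to 2094 elsewhere. Results for the members, and counts of all genes, are given without this pair where its absence changes them. Calls of the markers and of the other gene lists were not checked without it.

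Per kilobase of exon, the order of the members was Ebi3, Tgfb1, Il27, Tnf, Il15, Il12a, Il10, Il6, Il12b and Il23a. Mean levels over the 12 libraries ran from 46.6 RPKM (reads per kilobase of exon, scaled to library size) for Ebi3 to 0.109 for Il23a. Ebi3, the subunit shared by interleukin 27 and interleukin 35, lay above 95.2% of the 24678 genes not at 0 that have an exon length. Tgfb1 followed at 20.8. Il27 (7.33), Tnf (6.99), Il15 (5.82) and Il12a (4.69) followed. The ranges over libraries did not overlap between Ebi3 (35.8 to 55.3), Tgfb1 (15.2 to 30.5) and the rest, but they did between all later neighbours in the order. Il10 (0.823), Il6 (0.648) and Il12b (0.573) lay above 42.7% to 46.6% of the genes. Without the length term Tgfb1 came before Ebi3 and Il15 before Tnf and Il27. Of the 10, 9 had a mean log2 value of at least 4 and were tested, and Il23a, at 2.28, was not.

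Il6 was lower in DiI-positive than in DiI-negative cells, and no DiI-positive library held more than 1 read of it. The empty-liposome DiI-positive libraries held 0, 0 and 1 reads of Il6 and the curcumin-liposome DiI-positive libraries held 1, 0 and 1. The empty-liposome DiI-negative libraries held 38, 43 and 104 reads, and the curcumin-liposome DiI-negative libraries held 103, 92 and 55. The gates did not overlap: every one of the 6 DiI-negative libraries stood above every DiI-positive one. Of all genes tested, 6.04% had gates that did not overlap, in either direction. Summed over libraries and divided by size factors, DiI-negative cells held 124 times as many Il6 reads, with a 95% exact counting interval of 42.0 to 602. The ratio was 161 (28.6 to 6400) under empty and 104 (28.5 to 865) under curcumin liposomes. Intervals of this kind cover counting error only, and reads without molecular identifiers are not independent molecules.

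On the deposited scale, where this difference is compressed, Il6 fell by 0.41 ± 0.07 (SE) log2 units in DiI-positive cells averaged over both liposomes, with an adjusted p of 0.00311 in limma over 14227 genes. It was under the threshold of 0.05 in all 22 alternatives, 1 of them with no filter, at 0.000458 to 0.0188. The DiI-positive values of 4.62 and 4.63 are the floor for Il6, which follows the gene's own mean. DiI-negative libraries gave 435 of its reads and DiI-positive ones 3, and genes with 1 read in 12 libraries had a median value of -3.58. Il6 thus met the minimum log2 value of 4 only through its DiI-negative libraries, and its filtered calls, also within 1 liposome, support nothing beyond the reads above. Limma voom on the worked-back reads gave -6.01 ± 1.03 with an adjusted p of 0.00479. Il6 met the voom minimum, a mean of 10 reads, only through its DiI-negative libraries, so its voom call supports nothing further. The alternative on log2 reads with a pseudocount of 1 used the same minimum and has the same limit. Within curcumin liposomes Il6 fell by 0.46 ± 0.09 (adjusted p = 0.0266). That call was lost on leaving out curcumin DiI-positive replicate 1 (0.0611) or 2 (0.0846), or curcumin DiI-negative replicate 1 (0.109) or 2 (0.077). It was also lost with depth as a covariate (0.0794), with only the 6 libraries compared (0.0919) and with voom (0.0587), in a range over 23 alternatives of 0.00917 to 0.109. Where the call was lost on the deposited scale, the difference was -0.41 to -0.52. Within empty liposomes the difference of -0.35 ± 0.09 missed the threshold (adjusted p = 0.0716). The difference between the liposomes was -0.10 ± 0.13 (adjusted p = 0.999). The background for these counts is that 12.1% of all genes tested passed in the averaged comparison, 3.07% in the curcumin-liposome one and 2.95% in the empty-liposome one. With voom these shares were 9.76%, 1.82% and 1.58%. Of the 9 members tested, 2 passed in the averaged comparison, 1 in the curcumin-liposome one and 0 in the empty-liposome one, where voom also called 0. In that comparison Il6, Il12a, Tgfb1 and Il27, 4 members, had an unadjusted p under 0.05 in limma and in voom, as did 2540 of the 14227 genes tested in limma and 2599 of 15527 in voom.

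Monocyte markers, summed, ran from 30388 to 42927 reads per size factor in the DiI-positive libraries and from 48575 to 102020 in the DiI-negative ones, and NK cell markers from 1051 to 3251 against 6961 to 12526. Their part in the Il6 result was not tested. The genes whose values were most like those of Il6 over the 12 libraries were Clic1 (r = 0.970), Vim (0.959) and S100a6 (0.948). These are descriptions over 11455 protein-coding genes, and all points share the split between the gates.

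**Figure D2:**
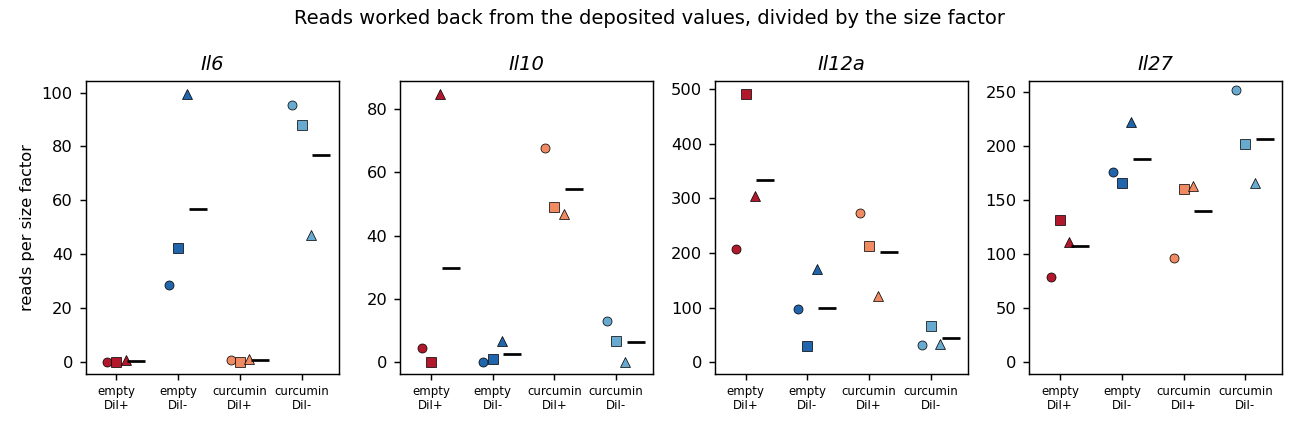
Reads worked back from the deposited values and divided by the size factor (y axis, from 0) for Il6, Il10, Il12a and Il27 in each library, by group on the x axis. Circles, squares and triangles are replicates 1, 2 and 3 and the bar is the mean of 3 libraries. Il6 is at 1 read or fewer in every DiI-positive library, and the highest Il10 library is an empty-liposome DiI-positive one.

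Il12a, the subunit particular to interleukin 12 and interleukin 35, went the other way. It had 236, 397 and 305 reads in the empty-liposome DiI-positive libraries and 128, 31 and 179 in the DiI-negative ones. Under curcumin liposomes it had 270, 177 and 111 reads in DiI-positive and 34, 69 and 39 in DiI-negative cells. Within each liposome every DiI-positive library was above every DiI-negative one, but across liposomes the gates overlapped. Of all genes tested, 26.9% had gates that did not overlap under empty and 20.6% under curcumin liposomes. Per size factor DiI-positive cells held 3.65 times as many Il12a reads, with a counting interval of 3.29 to 4.07. On the deposited scale Il12a rose by 0.71 ± 0.15 (SE) averaged over both liposomes (limma, adjusted p = 0.0106), and voom gave 2.06 ± 0.48 (adjusted p = 0.0217). The single-liposome differences were 0.74 ± 0.21 under empty (adjusted p = 0.0899) and 0.69 ± 0.21 under curcumin liposomes (0.104).

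The averaged Il12a call held in 21 of 22 alternatives and was lost with depth as a covariate, where the difference was 0.60 and the adjusted p 0.132 (range 0.00647 to 0.132). B cell markers were also higher in every DiI-positive than in every DiI-negative library, with the sums given above. Within groups, the B cell sums of replicates 1, 2 and 3 stood beside these Il12a reads. In empty-liposome DiI-positive cells the sums were 104036, 130008 and 94373, with 236, 397 and 305 reads. In empty-liposome DiI-negative cells they were 28839, 32879 and 38614, with 128, 31 and 179 reads. In curcumin DiI-positive cells they were 115249, 120486 and 40798, with 270, 177 and 111 reads. In curcumin DiI-negative cells they were 34027, 31882 and 16838, with 34, 69 and 39 reads. The order of the sums was in no group the order of the reads. The part of B cells in the Il12a result was not tested. The nearest genes were Ptp4a3 (r = 0.947), H2-Q7 (0.947) and Zhx2 (0.940).

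The partner subunits had few reads. Il12b, shared by interleukin 12 and interleukin 23, had 0 reads in 6 of 12 libraries. Its reads were 0, 0 and 50 in empty-liposome DiI-positive, 4, 101 and 0 in empty-liposome DiI-negative, 0, 0 and 72 in curcumin-liposome DiI-positive, and 0, 22 and 47 in curcumin-liposome DiI-negative libraries. Each group thus held libraries at or near 0 beside libraries with 22 reads or more, and no comparison between groups came near the threshold (averaged over liposomes, -0.04 ± 0.12, adjusted p = 0.887). Il23a had 0 reads in 8 of 12 libraries, and its 37 reads in empty-liposome DiI-positive replicate 3 were the most in any library. In the fit with no filter its averaged difference was 0.04 ± 0.04 (adjusted p = 0.609).

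Il27 and Ebi3 together form interleukin 27. Il27 had 90, 106 and 112 reads in empty-liposome DiI-positive and 232, 169 and 232 in empty-liposome DiI-negative cells, and 95, 133 and 150 against 271, 211 and 193 under curcumin. All 6 DiI-negative libraries had higher log2 values than all 6 DiI-positive ones, but narrowly. The lowest DiI-negative value was 7.32 and the highest DiI-positive value 7.31. Gates without overlap, in either direction, were found for 6.04% of all genes tested. The averaged difference of -0.25 ± 0.09 missed the threshold (adjusted p = 0.101, voom 0.0937). Ebi3 had log2 means of 10.04 ± 0.13 (SD, n = 3) and 10.17 ± 0.14 under empty liposomes, in DiI-positive and DiI-negative cells, and 10.26 ± 0.12 and 10.17 ± 0.10 under curcumin. Its averaged difference was -0.02 ± 0.08, with a 95% interval of -0.201 to 0.164. The library kit named in the labels does not mark strand, and Il27 overlaps Apobr and Ebi3 overlaps Gm16712 in the GENCODE M21 annotation, so reads of these pairs may not be told apart.

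Il10 reads were 5, 0 and 85 in the empty-liposome DiI-positive and 67, 41 and 43 in the curcumin-liposome DiI-positive libraries. The DiI-negative libraries held 0, 1 and 7 under empty and 14, 7 and 0 under curcumin liposomes. Under curcumin the gates did not overlap, which also held for 20.6% of all genes tested. Under empty liposomes 85 of the 90 DiI-positive reads came from 1 library. The averaged difference of 0.22 ± 0.08 missed the threshold (adjusted p = 0.0771, range over 22 alternatives 0.0471 to 0.217, the lowest without empty DiI-positive replicate 2). Within curcumin liposomes it was 0.29 ± 0.11 (limma, adjusted p = 0.162, range over 23 alternatives 0.0229 to 0.336). Only 1 of these was under 0.05, the one without empty DiI-positive replicate 3. That library is not in this comparison but enters the shared estimate of the spread, and the difference stayed at 0.29 without it. Per size factor, summed Il10 reads were 9.74 times as many in DiI-positive cells (counting interval 6.62 to 14.9). This rests on 29 DiI-negative reads, and without curcumin DiI-negative replicate 1, which held 14 of them, the ratio was 15.8. The nearest genes were Igf2bp2 (r = 0.939), Ccl7 (0.921) and Kcnj16 (0.914).

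Tgfb1 had log2 means of 10.90 ± 0.10 (SD, n = 3) against 11.20 ± 0.10, in DiI-positive against DiI-negative cells under empty liposomes, where the libraries did not overlap, and 11.06 ± 0.13 and 11.28 ± 0.23 under curcumin liposomes, where they did. Gates without overlap under empty liposomes were found for 26.9% of all genes tested. The averaged Tgfb1 difference of -0.26 ± 0.09 missed the threshold (adjusted p = 0.0836). Without the pair of curcumin libraries numbered 3 it was -0.34 with an adjusted p of 0.0409, in a range over 22 alternatives of 0.0409 to 0.203.

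Tnf and Il15 overlapped between the gates under both liposomes. Tnf had 282, 207 and 201 reads in empty-liposome DiI-positive libraries, 213, 138 and 465 in the matching DiI-negative ones, and 326, 119 and 173 against 335, 348 and 224 under curcumin. Its averaged difference was -0.07 ± 0.15 (95% interval -0.397 to 0.261, adjusted p = 0.821). Il15 had 309, 221 and 248 against 228, 241 and 346 reads under empty and 462, 365 and 236 against 338, 261 and 149 under curcumin liposomes. Its averaged difference was 0.22 ± 0.13 (adjusted p = 0.310).

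**Figure D3:**
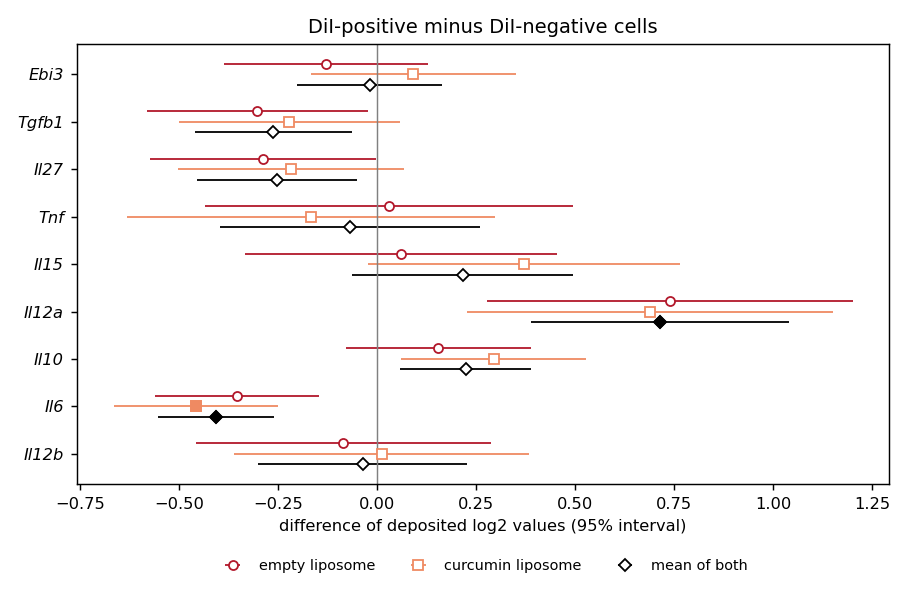
Difference of deposited log2 values, DiI-positive minus DiI-negative, with 95% intervals (x axis) for the 9 members tested (y axis), under empty liposomes (circles), curcumin liposomes (squares) and averaged over both (diamonds). Filled symbols passed an adjusted p of 0.05: Il6 averaged and under curcumin, and Il12a averaged.

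Whether curcumin in the liposome altered these genes was asked within each gate. No member passed the threshold in DiI-positive cells, in DiI-negative cells, averaged over both or in the test of whether the curcumin difference varied between gates. No gene at all passed, so percent called was 0.0% in each of these comparisons; limma gave 1165, 469, 1119 and 527 genes with an unadjusted p under 0.05 and voom called 0 as well. In DiI-positive cells the member differences on the log2 scale ran from -0.33 ± 0.21 for Il12a (95% interval -0.788 to 0.135) to 0.25 ± 0.18 for Il15 (-0.138 to 0.648). For Il6 the interval was -0.203 to 0.210, on a scale that compresses it, and there were 2 reads under curcumin and 1 under empty. In DiI-negative cells the differences ran from -0.28 ± 0.21 for Il12a to 0.13 ± 0.21 for Tnf. Per size factor, Il12a reads under curcumin were 0.641 of those under empty liposomes in DiI-positive and 0.433 in DiI-negative cells, and this did not pass the test in either. A p that misses the threshold does not show that levels were alike: the intervals leave room for changes of the size above.

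**Figure D4:**
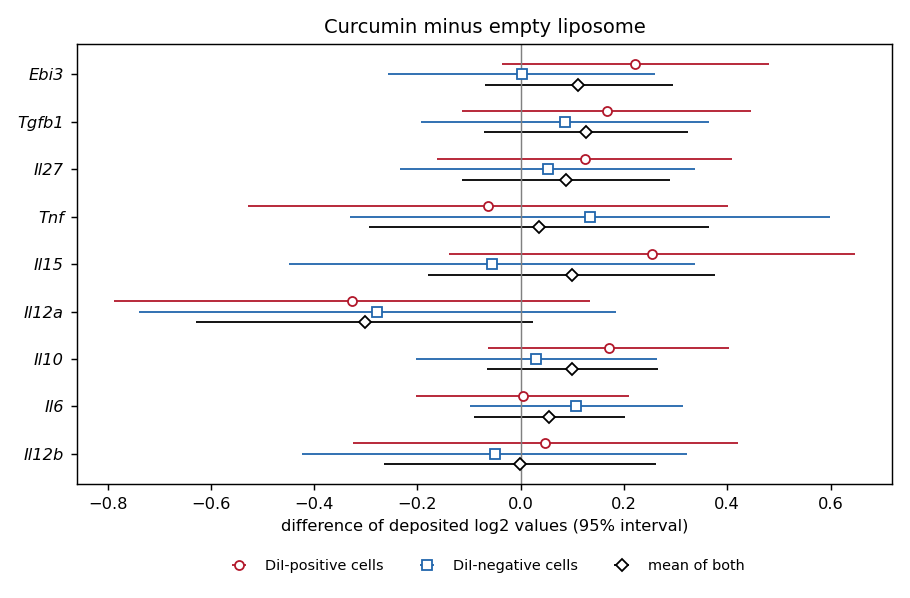
Difference of deposited log2 values, curcumin minus empty liposome, with 95% intervals (x axis) for the 9 members tested (y axis), in DiI-positive cells (circles), in DiI-negative cells (squares) and averaged over both (diamonds). No symbol is filled, since none passed an adjusted p of 0.05, and every interval spans 0.

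Receptors of these cytokines moved in both directions between the gates. Of 15 receptor genes tested, 4 rose and 4 fell in DiI-positive cells averaged over both liposomes, against 5.54% and 6.56% of all genes; their median difference was -0.12, against 0.0 over all genes. Il2rb, the chain shared by the receptors for interleukin 15 and interleukin 2, fell by 1.83 ± 0.21 (adjusted p = 0.000453), with log2 means under empty liposomes of 11.91 in DiI-negative and 9.62 in DiI-positive cells. NK cells carry this chain too, all 6 NK cell markers also fell, and their part was not tested. Il12rb2, of the interleukin 12 receptor, fell by 1.10 ± 0.28, Il6ra by 0.60 ± 0.13 and Tnfrsf1a, a receptor for Tnf, by 0.54 ± 0.11 (adjusted p 0.0253, 0.0104 and 0.00902). The genes that rose were Il15ra, which presents interleukin 15 (0.54 ± 0.16, adjusted p = 0.0466), both signalling receptors for Tgfb1, Tgfbr1 (0.53 ± 0.09, 0.00404) and Tgfbr2 (0.36 ± 0.08, 0.0138), and Il10rb (0.28 ± 0.08, 0.0482).

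Of the 17 regulators of transcription and mRNA decay, 7 fell and 2 rose (median -0.21). The shares of all genes, 6.56% lower and 5.54% higher, are the background for this and the following lists. Nfkb1, a subunit of NF-kappaB, fell by 0.68 ± 0.08 (adjusted p = 0.000444), Bcl3, a nuclear partner of it, by 0.82 ± 0.11 (0.00112) and Irf5, a factor for Il12b and Tnf, by 0.36 ± 0.07 (0.00578). Elavl1, an RNA-stabilizing protein, fell by 0.48 ± 0.08 (0.00438). Those that rose were Zfp36l1 and Maf. Of the 20 signal transducers and feedback genes, 3 fell (Jak2 by 0.67 ± 0.11, Socs3 and Socs1) and none rose (median -0.23). Of 8 release and activation genes 1 fell, a share not read as a result at this list size: Nrros, which tethers latent TGF-beta (by 0.30 ± 0.07, adjusted p = 0.0179). Among 14 other cytokine genes Ltb (0.80 ± 0.17, adjusted p = 0.0115), Lta and Il16 rose, while Tnfsf14 (fell by 0.71 ± 0.13, 0.00548) and Lif fell. Lif entered the test only through its DiI-negative libraries (log2 means of 4.30 and 4.09): both DiI-positive groups had a mean of 3.95, under the minimum of 4, so its call supports nothing. B cell markers, all of which rose, stand beside Ltb and Lta, and their part was not tested. In curcumin against empty liposomes no gene of these lists passed.

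**Figure D5:**
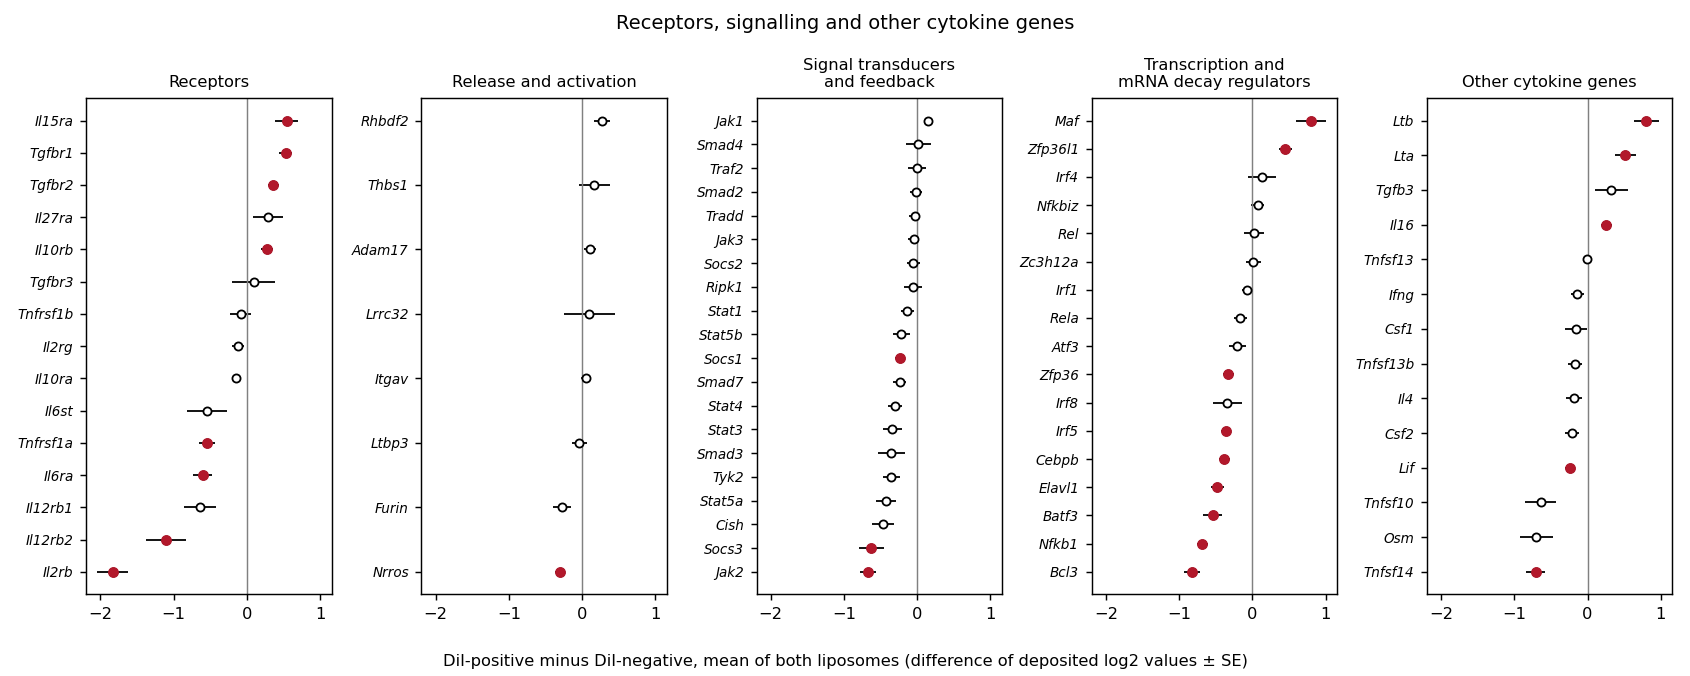
Difference of deposited log2 values ± SE, DiI-positive minus DiI-negative averaged over both liposomes (x axis), for each tested gene of 5 lists (y axis). Filled symbols passed an adjusted p of 0.05; Il2rb lies lowest among the receptors, and Ltb and Maf are the highest of their lists.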

How the data were processed

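RNA of 4 groups of 3 libraries was measured. The deposited log2 values, one per gene and library, were made by the authors, and the submitters' processing notes name STAR 2.4.0d, DESeq2 1.8.1 and the GRCm38 build, without saying what each was used for. The counter, annotation and transform are not stated there. The form of the values is that of a regularized log. Inverting it gave values within 0.1 of a whole read for 79.7% of 67180 values under 1000 reads (genes with mean log2 of 4 to 8). The share would be 20.0% if unrelated to whole numbers. Members were worked back in the same way. Ebi3 and Tgfb1 lie above that range of log2, with 7 and 3 of 12 libraries within 0.1 of a whole read. For the other members it was 10 to 12. The annotation for exon lengths and overlaps was GENCODE M21. The main test was limma 3.58.1 in R 4.3.3 on the deposited log2 values, genes with a mean of at least 4, all 12 libraries in 1 fit (8 residual and 3.51 prior degrees of freedom, prior variance following the mean), with Benjamini-Hochberg adjustment over all genes and a threshold of 0.05. The planned count test was not run, since the files hold log2 values. Limma voom used worked-back reads of genes with a mean of at least 10 reads (15527 genes), added after seeing the data, as were the log2 reads with a pseudocount of 1 and the removal of both curcumin libraries numbered 3. The scripts were tested on simulated data. Genes named in the text are the 10 members, up to 4 per list with the smallest p, every receptor past the threshold, and the 3 nearest genes by Pearson r; Zfp36l1, Maf and Il16 were added after their values were seen. The members and lists were chosen with earlier results of these data known.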

Additional observations from a re-analysis of the deposited data

How the results depend on the processing

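The averaged Il6 call held in all 22 alternatives, the averaged Il12a call in 21 and the curcumin-liposome Il6 call in 16 of 23. On the deposited scale and in the alternatives on worked-back reads, Il6 met the minimum only through its DiI-negative libraries. Its filtered calls therefore support nothing beyond the reads themselves. The 3 libraries a group and the floor of the scale limit what can pass; Il6, Il10, Il12b and Il23a had at most 104 reads in any library. The cause of the changes below was not tested unless stated. No member passed in any curcumin-against-empty comparison or in the test between gates under any alternative.

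Members past the threshold under empty liposomes numbered 0, and 1 with library quality weights (Il12a, adjusted p = 0.0498). With log2(reads per size factor + 1) there was also 1 (Il6, 0.011), under the limit given above. Under curcumin liposomes 1 passed, and 0 with depth as a covariate, with voom, and with only the 6 libraries compared, which leaves fewer samples for the spread; leaving out each library gave 0 to 2. Averaged, 2 passed, 1 with depth as a covariate, and 2 to 3 when each library was left out.

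Of all genes, 419 passed under empty liposomes, 263 with no filter (more genes tested), 142 with depth as a covariate, 789 with library quality weights, 246 with voom, 666 without the curcumin pair numbered 3, and 85 to 659 when each library was left out. Under curcumin liposomes 437 passed, 248 with no filter, 74 with depth, 283 with voom, 40 with only the 6 libraries compared, 706 without the pair, and 114 to 1088 with each library left out. Averaged, 1722 passed, 432 with depth, and 1149 to 2244 with each left out. For curcumin against empty, 0 passed in DiI-positive cells, 1 with log2(reads per size factor + 1), 3 without the pair and 0 to 4 with each left out. Averaged over gates it was 0, 1 without the pair and 0 to 2 with each left out, and for the difference between gates 0, 1 without the pair and 0 to 2 with each left out.

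Uncalled members whose sign turned, with their log2 differences, were these. With depth as a covariate, Il15 under empty (-0.027), Il12b under curcumin (-0.027), Ebi3 averaged over liposomes (0.051) and Il6 in curcumin against empty in DiI-positive cells (-0.0208) turned. With quantile normalization, Il12b under curcumin liposomes (-0.0234), Il6 in DiI-positive cells (-0.0116) and Ebi3 in DiI-negative cells (-0.0023) turned, and with library weights Ebi3 averaged over liposomes (0.0055). With voom, Il12b turned under curcumin liposomes (-1.38), in DiI-negative cells (0.52), averaged over gates (0.39) and between gates (-0.26), Ebi3 in DiI-negative cells (-0.004), and Il6 (0.0435) and Il12a (0.33) between gates. With log2(reads per size factor + 1), Il12b turned in the same comparisons (-1.18, 0.39, 0.30 and -0.18) and Il12a between gates (0.23). Without the pair numbered 3, Il12b (-0.0781) and Ebi3 (-0.0059) turned under curcumin liposomes, Il12b in DiI-positive (-0.11) and Il15 in DiI-negative cells (0.10), and Il12a (0.053), Il27 (-0.0322) and Tgfb1 (-0.0725) between gates.

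Leaving out each library gave these ranges where a sign turned. Under empty liposomes they were -0.11 to 0.27 for Tnf, -0.002 to 0.24 for Il10, -0.20 to 0.10 for Il12b and -0.0425 to 0.17 for Il15, and under curcumin liposomes -0.14 to 0.0914 for Il12b. Averaged over liposomes they were -0.14 to 0.0525 for Tnf, -0.12 to 0.0556 for Il12b and -0.0575 to 0.0163 for Ebi3. For curcumin against empty in DiI-positive cells they were -0.21 to 0.0496 for Tnf and -0.11 to 0.16 for Il12b. In DiI-negative cells they were -0.0106 to 0.38 for Tnf, -0.15 to 0.13 for Il12b, -0.0105 to 0.11 for Il27, -0.0762 to 0.0567 for Ebi3, -0.17 to 0.10 for Il15 and -0.0475 to 0.17 for Tgfb1. Averaged over gates they were -0.0393 to 0.16 for Tnf and -0.0802 to 0.0905 for Il12b. Between gates they were -0.22 to 0.13 for Il12a, -0.0863 to 0.21 for Il12b and -0.0057 to 0.21 for Tgfb1.

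Whether libraries of the same number share mice is not stated. The rule used asked for a correlation over 0.1 in every pair of the same number and was not met. Over 12 pairs it ran from -0.114 to 0.328 (median 0.047). The rule also covers libraries under different liposomes, so it cannot decide whether the gates were paired within a liposome. Under empty liposomes each DiI-positive library correlated best with the DiI-negative one of its number (0.079, 0.004 and 0.076, against at most -0.006, 0.001 and 0.003). Under curcumin liposomes this held for number 3 (0.328 against -0.112), but not for 1 (0.066 against 0.197) or 2 (0.035 against 0.045). With a replicate block, 405, 407 and 1616 genes and 0, 1 and 2 members passed under empty, under curcumin and averaged, and no member's call changed. That block gives a number the same shift in all 4 groups, and a fit with gates paired within each liposome was not run.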
